A study of Mus musculus with 12 samples.

Results

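The 10 genes described here encode 5 adenylyl cyclases (Adcy3, Adcy4, Adcy5, Adcy6 and Adcy9), 2 catalytic subunits of protein kinase A (PKA; Prkaca and Prkacb) and 3 regulatory subunits of PKA (Prkar1a, Prkar2a and Prkar2b). They were taken by gene symbol from the 20295 genes of the count table, with earlier results of these data known. All 10 were among the 13543 genes that passed the filter on low counts. RNA sequencing was performed on epididymal white adipocytes (eWAs), which were floated out of collagenase-digested epididymal fat of lean male C57/BL6J mice and cultured in a 3D hydrogel (50000 cells per well). After 2 days, cultures received the vehicle alone (DMSO), isoproterenol for 3 h (ISO), lipase inhibitors alone (Lip), or lipase inhibitors followed by isoproterenol for 3 h (Lip+ISO), with 3 libraries in each of the 4 groups. Isoproterenol is a β-adrenergic agonist, and the inhibitors were Atglistatin, against adipose triglyceride lipase (ATGL), and CAY10499, against hormone-sensitive lipase (HSL). The labels name no engineered allele, and the age of these mice is not given in the sources used here. One legend of the study gives SR-3420, an activator of lipolysis, for these cells, but the titles of the samples give ISO, and the titles were followed.

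When a β-adrenergic receptor is engaged, the stimulatory G protein activates adenylyl cyclases in the plasma membrane, which convert ATP to cyclic AMP (cAMP). PKA is held inactive as a complex of regulatory and catalytic subunits. Binding of cAMP to the regulatory subunits frees the catalytic subunits, which in adipocytes phosphorylate HSL and perilipin and thereby start lipolysis, and which phosphorylate the transcription factor CREB, whose binding site is the cAMP response element. The cyclases differ in how they are regulated: AC5 and AC6 are inhibited by calcium and by the inhibitory G protein, AC3 responds to calmodulin, AC4 is stimulated by G protein βγ subunits, and AC9 is only weakly responsive to forskolin. Among the regulatory subunits, RIIβ (Prkar2b) is the form typical of adipose tissue, and RIα (Prkar1a) is found in nearly all cells.

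The libraries held 22632220 to 43707557 counts. Markers of adipocytes summed to between 30780 and 45630 CPM (read counts put on a common library total after TMM scaling) in all 12 libraries and did not separate the groups. The labelled cell type was thus present in all libraries, and 2 of 10 adipocyte markers were called lower and none higher in ISO against DMSO. Markers of other cells were present at far lower sums and were higher in ISO than in DMSO: 8 macrophage markers summed to 51.2 to 65.5 CPM in DMSO and 107.5 to 163 in ISO (5 of 8 called higher), and 7 markers of fibroblasts and progenitors to 366 to 648 and 717 to 940 (3 of 7). The smallest sum, that of 6 mesothelial markers, was 24.8 to 56.6 CPM in DMSO and 65.4 to 75.6 in ISO (1 of 6 called higher), whereas 6 markers of smooth muscle and pericytes overlapped at 177 to 273 and 178 to 274 CPM (0 of 6 called). The most abundant of these 6, Acta2, lay at 127, 157 and 112 CPM in DMSO and 85.0, 116 and 55.1 in ISO. The median log2 fold change of the 6 was 0.57. In ISO against DMSO, 12.3% of all tested genes were called higher. A single marker in 1 library, mesothelial and in Lip 1, was at 0. Under Lip+ISO the sums of macrophage and fibroblast markers were 69.7 to 119 and 442 to 614 CPM, against 55.5 to 61.0 and 486 to 511 in Lip. Markers of smooth muscle and pericytes summed to 136 to 192 CPM in Lip+ISO and 215 to 290 in Lip, with no overlap (1 of 6 called lower, against 15.8% of all tested genes). Among them, Acta2 measured 168, 178 and 233 CPM in Lip and 98.2, 88.5 and 47.2 in Lip+ISO. The median log2 fold change of the 6 was 0.26, so the lower sum does not hold for the markers as a set. The fibroblast sums of Lip+ISO lay below those of ISO without overlap (3 of 7 called lower, against 4.59% of all tested genes). So did the sums of 9 endothelial markers (93.2 to 274 against 279 to 507 CPM, 1 called lower) and of the mesothelial markers (41.9 to 51.8 against 65.4 to 75.6, 0 called). The part of these cells in the changes below was not tested, and in RNA from whole cultures fewer cells of a type and less RNA per cell cannot be told apart.

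Stimulation with ISO was accompanied by higher Adcy3 and Prkar1a and by lower Adcy6, whereas neither catalytic subunit passed the test without a replicate block. With the block, Prkacb and Adcy5 also passed as lower and Adcy4 as higher. Adcy3 rose 2.66-fold and Prkar1a 1.40-fold in ISO against DMSO, and Adcy6 fell by 0.60 on the log2 scale. The same question asked in the presence of lipase inhibitors (Lip+ISO against Lip) gave a 2.99-fold rise of Adcy3, a 1.69-fold rise of Prkar1a, and falls of Adcy6 and Adcy9 by 0.73 and 0.69 on the log2 scale. With the block, Prkar2a also passed there as higher, and Adcy5 and Prkacb as lower. Lipase inhibitors without ISO changed none of the 10 genes past the threshold. In cells that received ISO, the inhibitors were accompanied by lower Adcy9 and Adcy6. With the block, Adcy4, Adcy5 and Prkar2b also passed there as lower, and Prkar1a as higher.

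These calls rest on edgeR's quasi-likelihood test fitted to all 13543 genes, with a call at a Benjamini-Hochberg adjusted p at or under 0.05. In ISO against DMSO, 2 of the 10 genes were called higher, against 12.3% of all tested genes, and 1 was called lower, against 13.9%. Against Lip, Lip+ISO had 2 called higher (11.5% of all genes) and 2 lower (15.8%). A block for the replicate number, which paired the libraries of these comparisons, gave 3 higher and 3 lower in ISO against DMSO, where it called 38.5% of all genes in either direction, and 3 higher and 4 lower in Lip+ISO against Lip, where it called 35.6%. In Lip against DMSO none was called, where 0.0517% of all genes were called in either direction. The DESeq2 Wald test also called none there (0.316% of all genes), and 1 of the 10 genes, Adcy6, had an unadjusted edgeR p under 0.05 (4.3% of all genes). Against ISO, Lip+ISO had 2 called lower (4.59% of all genes) and none higher (4.36%). Prkar1a was the 1 gene that was higher at an unadjusted p under 0.05 and by DESeq2. DESeq2 called 876 of 12882 genes higher in Lip+ISO against ISO and 831 lower (13.3% in either direction). Among the 10, it called Adcy6 and Adcy9 lower (DESeq2 adjusted p = 3e-04 and 1.06e-06). An unadjusted edgeR p under 0.05 was found for 23.8% of all genes, counting both directions. The block gave 1 higher and 5 lower there, where it called 19.2% of all genes. The interaction, which is the ISO response under inhibitors less the ISO response without them, was called for none of the 10 by edgeR without a block or by DESeq2 (1.62% and 4.89% of all genes). Of the 10, Adcy9 and Prkar1a had an unadjusted p under 0.05 (2 genes, where 13.8% of all genes passed this rule). With the block, the interaction of Adcy9 was called (6.63% of all genes). With a log2 fold change of at least 1 also required, Adcy3 alone was left in ISO against DMSO and in Lip+ISO against Lip, where 7.48% and 7.35% of all genes passed, and none in Lip+ISO against ISO (1.99%). Across the 5 comparisons, the 10 genes had median log2 fold changes of -0.13 to 0.01, and all tested genes had medians of -0.02 to 0.00.

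**Figure D1:**
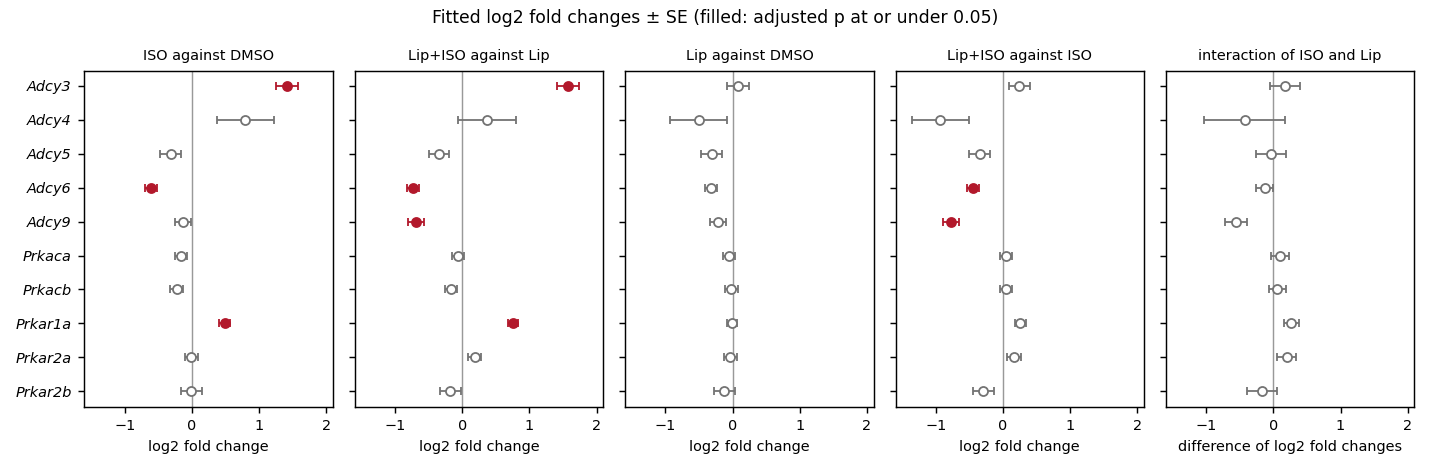
Fitted log2 fold changes of the 10 genes in the 4 comparisons of groups, and in the right panel the difference of the log2 responses to ISO with and without lipase inhibitors. Points are edgeR estimates from 3 libraries per group, bars are standard errors, and filled points have an adjusted p at or under 0.05. Adcy3 lies at 1.41 and 1.58 in the left 2 panels, and no point is filled in the panels of Lip against DMSO and of the interaction, all from the fit without a replicate block.

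The levels of the 10 genes spanned a wide range. Levels are compared between genes as CPM per kilobase of the length over which the authors counted. In DMSO the order, from highest to lowest mean, was Prkar2b (274 ± 36.8 CPM per kilobase, SD, n = 3), Prkar1a (122 ± 8.20), Prkaca (95.9 ± 4.2), Adcy5 (65.3 ± 8.95), Adcy6 (56.8 ± 3.92), Prkar2a (32.5 ± 2.94), Prkacb (20.5 ± 1.51), Adcy9 (8.05 ± 1.29), Adcy3 (6.47 ± 1.27) and Adcy4 (1.5 ± 0.73). The ranges of neighbours in this order overlapped for Adcy5 and Adcy6 and for Adcy9 and Adcy3, and were apart for the other pairs of neighbours. The order differed in ISO and in Lip+ISO. In ISO, Adcy3 (17.2 ± 1.37 CPM per kilobase) overlapped Prkacb (17.5 ± 0.78) and stood above Adcy9 (7.34 ± 0.69). In Lip+ISO, Adcy3 (20.4 ± 3.77) likewise stood beside Prkacb (18.0 ± 1.91) and above Adcy9 (4.30 ± 0.19). In Lip+ISO but not in ISO, Prkar2a (36.2 ± 3.84) stood above Adcy6 (27.4 ± 2.23), and the ranges of Prkar2b (222 ± 18.8) and Prkar1a (205 ± 10.4) overlapped.

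**Figure D2:**
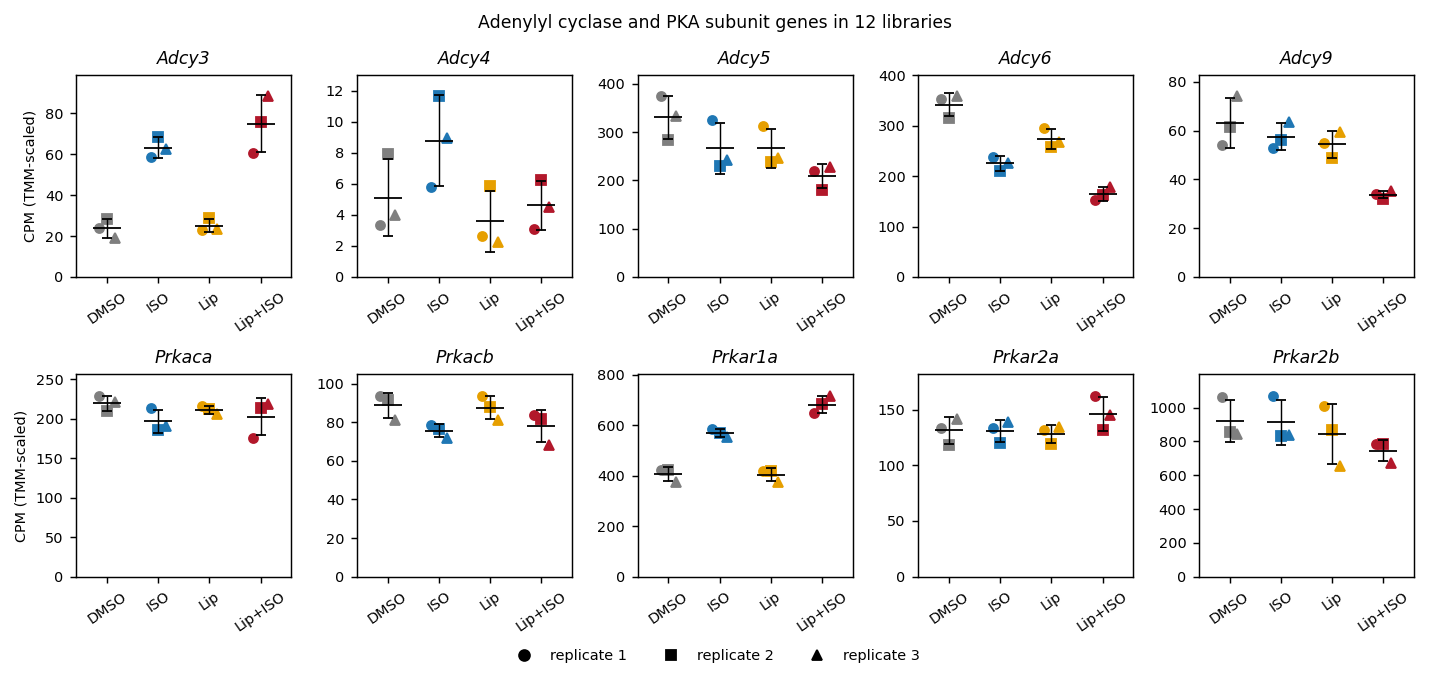
CPM of each of the 10 genes in each of the 12 libraries, with the 4 groups on the horizontal axis, 1 panel per gene and its own vertical axis from 0. Symbols mark the replicate number, the horizontal line is the mean of 3 libraries and the bar its SD. The ISO and Lip+ISO libraries of Adcy3 lie at 58.7 to 88.4 CPM, above all DMSO and Lip libraries (19.0 to 28.8).

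Adcy3 encodes the calmodulin-responsive cyclase known from olfactory neurons and the primary cilium. It lies on chromosome 12 (mm9, 4133397 to 4213524, plus strand, NM_001159537). Its levels were 24.1, 28.3 and 19.0 CPM in DMSO 1 to 3, 58.7, 68.6 and 62.5 in ISO, 23.0, 28.8 and 23.5 in Lip, and 60.6, 75.9 and 88.4 in Lip+ISO. Every library with ISO was above every library without it. This was a log2 fold change of 1.41 ± 0.16 (SE) in ISO against DMSO (edgeR adjusted p = 4.39e-05) and 1.58 ± 0.16 in Lip+ISO against Lip (adjusted p = 1.05e-05), and the rise passed the test under every alternative analysis tried. The difference of these responses was 0.17 ± 0.22 (adjusted p = 0.803). The gene overlaps Cenpo on the opposite strand, and as the sources do not say whether reads were assigned by strand, reads from the shared stretch are uncertain. For Cenpo itself the log2 fold change was -0.38 in ISO against DMSO (adjusted p = 0.213) and -0.14 in Lip+ISO against Lip (adjusted p = 0.704).

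Adcy6 and Adcy5, the calcium-inhibited cyclases, made up most of the cyclase RNA. Adcy6 (chromosome 15, mm9, 98420421 to 98438064, minus strand, NM_007405) measured 353, 315 and 358 CPM in DMSO, 239, 210 and 226 in ISO, 296, 257 and 268 in Lip, and 153, 163 and 179 in Lip+ISO. The 4 groups did not overlap and stood in the order DMSO, Lip, ISO and Lip+ISO. It fell by 0.60 ± 0.09 on the log2 scale in ISO against DMSO (adjusted p = 0.000375), and by 0.73 ± 0.09 in Lip+ISO against Lip (adjusted p = 5.04e-05). Lip+ISO differed from ISO by a log2 fold change of -0.45 ± 0.09 (adjusted p = 0.00733), which missed the threshold when replicate 1, 2 or 3 was left out of all groups (adjusted p = 0.0681, 0.0763 and 0.0566). In Lip against DMSO the log2 fold change was -0.32 ± 0.09 with an unadjusted p of 0.00337 and an adjusted p of 0.568.

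Adcy5 (chromosome 16, mm9, 35155722 to 35304635, plus strand, NM_001012765) measured 374, 284 and 333 CPM in DMSO, 326, 230 and 243 in ISO, 313, 239 and 246 in Lip, and 219, 180 and 229 in Lip+ISO. Replicate 1 was the highest library in DMSO, ISO and Lip, and the DMSO and ISO ranges overlapped. The log2 fold change was -0.31 ± 0.16 in ISO against DMSO (adjusted p = 0.158) and -0.35 ± 0.16 in Lip+ISO against Lip (adjusted p = 0.126), and neither passed the test. With the replicate number as a block, both were called lower, at -0.32 (adjusted p = 0.0107) and -0.34 (adjusted p = 0.00747). Lip+ISO against ISO was -0.35 without the block (adjusted p = 0.199) and passed with it, at -0.34 (adjusted p = 0.0162). Without ISO replicate 1 the first was -0.49 (adjusted p = 0.0358), and with scaling by library totals alone the second was -0.46 (adjusted p = 0.0148).

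Adcy9, the forskolin-insensitive cyclase, showed its lowest values in Lip+ISO. The gene (chromosome 16, mm9, 4284886 to 4420498, minus strand, NM_009624) measured 54.0, 61.3 and 74.1 CPM in DMSO, 53.0, 56.1 and 63.5 in ISO, 55.0, 48.6 and 59.4 in Lip, and 34.0, 32.1 and 35.1 in Lip+ISO. The Lip+ISO libraries lay below the other 9, which overlapped. The log2 fold change was -0.69 ± 0.12 in Lip+ISO against Lip (adjusted p = 0.00074), -0.77 ± 0.12 in Lip+ISO against ISO (adjusted p = 0.00146), and -0.13 ± 0.12 in ISO against DMSO (adjusted p = 0.424). The call in Lip+ISO against ISO was lost without replicate 2 of all groups (adjusted p = 0.0513). The interaction was -0.56 ± 0.17, with an unadjusted p of 0.00549 and an adjusted p of 0.134, but it passed the test at -0.56 once a replicate block was added (adjusted p = 0.0163). From Lip to Lip+ISO, the summed markers of smooth muscle and pericytes also dropped. This did not hold for the 6 markers as a set, whose median log2 fold change was 0.26. The macrophage sum went the other way, from 55.5 to 61.0 CPM in Lip to 69.7 to 119 in Lip+ISO. Fibroblast, endothelial and mesothelial sums of Lip+ISO stood under the ISO range. The part of any of these cells in the Adcy9 and Adcy6 values was not tested.

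Adcy4 was the lowest of the 10 genes, with 76 to 515 counts per library. The gene (chromosome 14, mm9, 56387929 to 56402856, minus strand, NM_080435) measured 3.38, 7.93 and 3.99 CPM in DMSO, 5.77, 11.7 and 8.95 in ISO, 2.61, 5.86 and 2.27 in Lip, and 3.07, 6.26 and 4.49 in Lip+ISO. Replicate 2 was the highest library of every group, and the groups overlapped. The log2 fold change was 0.80 ± 0.42 in ISO against DMSO (adjusted p = 0.181) and -0.94 ± 0.42 in Lip+ISO against ISO (adjusted p = 0.201). With the replicate number as a block, the first was 0.83 and passed the test (adjusted p = 0.00548), as did the second at -0.94 (adjusted p = 0.00612). Without single libraries the first ranged from 0.53 (without ISO 2) to 1.25 (without DMSO 2) and passed in no such fit. In Lip+ISO against Lip the log2 fold change of 0.37 (adjusted p = 0.592) ranged from 0.09 (without Lip+ISO 2) to 0.91 (without Lip 2). Summed endothelial markers varied with it between libraries, as sums for other cell types did in part. The 9 markers summed to 120 to 227 CPM in DMSO, 279 to 507 in ISO, 59.6 to 198 in Lip and 93.2 to 274 in Lip+ISO, and replicate 2 again held the highest sum of every group. Of these 9 markers, 1 was called higher in ISO against DMSO, where 12.3% of all tested genes were. In DMSO, ISO and Lip+ISO, replicate 2 also held the highest sums of fibroblast, mesothelial, and smooth muscle and pericyte markers. In Lip, other replicates held them. The macrophage sum was highest in replicate 2 of DMSO and Lip only. The part of endothelial or other cells in the Adcy4 values was not tested.

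**Figure D3:**
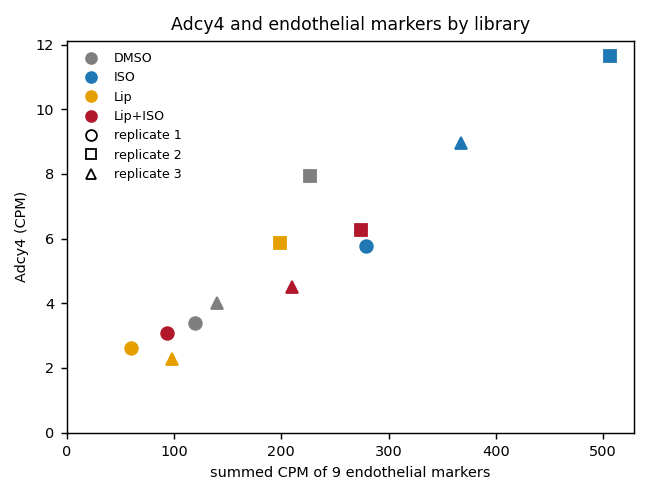
Adcy4 (CPM, vertical axis) against the summed CPM of 9 endothelial markers (horizontal axis) in the 12 libraries, colored by group, with symbols for the replicate number. The library with the highest Adcy4, ISO 2 at 11.7 CPM, also has the highest marker sum, 507 CPM.

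Neither catalytic subunit of PKA was called in any comparison without the replicate block. Prkaca, the Cα subunit (chromosome 8, mm9, 86496877 to 86520341, plus strand, NM_008854), lay between 175 and 229 CPM in all 12 libraries. Its largest log2 fold change among the 4 comparisons of groups was -0.16 ± 0.09, in ISO against DMSO (adjusted p = 0.213). Prkacb, the Cβ subunit (chromosome 3, mm9, 146392543 to 146475910, minus strand, NM_011100), measured 93.6, 91.3 and 81.3 CPM in DMSO, 78.7, 76.3 and 72.0 in ISO, 93.4, 87.9 and 81.4 in Lip, and 83.7, 81.4 and 68.4 in Lip+ISO. All ISO libraries were below all DMSO libraries, and in each group replicate 3 was the lowest. The log2 fold change was -0.23 ± 0.09 in ISO against DMSO (unadjusted p = 0.0275, adjusted p = 0.0841) and -0.17 ± 0.09 in Lip+ISO against Lip (adjusted p = 0.207). With the replicate number as a block, Prkacb passed in both, at -0.23 (adjusted p = 0.00787) and -0.17 (adjusted p = 0.0322). Without Lip+ISO replicate 3, which changed the filter, the scaling and the shared spread, the first was -0.23 with an adjusted p of 0.0468.

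Prkar1a, the RIα subunit, was the only regulatory subunit called with ISO in the fit without a replicate block. The gene (chromosome 11, mm9, 109512263 to 109530962, plus strand, NM_021880) measured 421, 422 and 374 CPM in DMSO, 584, 570 and 552 in ISO, 418, 419 and 373 in Lip, and 646, 682 and 715 in Lip+ISO. The DMSO and Lip values were nearly the same, all ISO libraries were above them, and all Lip+ISO libraries were above the ISO libraries. The log2 fold change was 0.49 ± 0.08 in ISO against DMSO (adjusted p = 0.000776) and 0.76 ± 0.08 in Lip+ISO against Lip (adjusted p = 1.52e-05), and both passed under every alternative without a minimum fold. Between Lip+ISO and ISO it was 0.26 ± 0.08 and missed the threshold (adjusted p = 0.0644), but passed with DESeq2 size factors (adjusted p = 0.0458) and in the DESeq2 Wald test (adjusted p = 0.00681). It also passed there with the replicate number as a block, at 0.26 (adjusted p = 0.0224). The difference of the responses to ISO was 0.27 ± 0.11 (unadjusted p = 0.0345, adjusted p = 0.312).

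Prkar2b, the RIIβ subunit (chromosome 12, mm9, 32643344 to 32746144, minus strand, NM_011158), measured 1062, 855 and 841 CPM in DMSO, 1069, 833 and 840 in ISO, 1011, 869 and 654 in Lip, and 783, 782 and 673 in Lip+ISO. DMSO and ISO were alike library by library, with a log2 fold change of -0.01 ± 0.16 (adjusted p = 0.973). All Lip+ISO libraries were below all ISO libraries, at a log2 fold change of -0.29 ± 0.16 (adjusted p = 0.284). With the replicate number as a block this comparison passed, at -0.29 (adjusted p = 0.0475). Prkar2a, the RIIα subunit (chromosome 9, mm9, 108594474 to 108651842, plus strand, NM_008924), lay between 118 and 162 CPM in all libraries. Its log2 fold change was -0.01 ± 0.10 in ISO against DMSO (adjusted p = 0.948) and 0.19 ± 0.10 in Lip+ISO against Lip (adjusted p = 0.194), which passed with the replicate number as a block at 0.19 (adjusted p = 0.0339). Both of the values near -0.01 changed sign between scalings and carry no direction.

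In ISO against DMSO, the libraries of 2 of the 10 genes were entirely higher and those of 2 entirely lower, where 20.7% and 22.6% of all tested genes were. With inhibitors present (Lip+ISO against Lip), 2 were entirely higher and 3 entirely lower (17.2% and 22% of all genes). The comparison of Lip against DMSO had 1 entirely lower (5.21%) and none entirely higher (5.19%). For Lip+ISO against ISO, 1 was entirely higher and 4 entirely lower (11.9% and 13.5%).

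The composition of each family followed from these values. Of the summed CPM per kilobase of all 10 adenylyl cyclase genes in the table, Adcy3 held 4.69% ± 1.22 (SD, n = 3) in DMSO, 14.5% ± 2.19 in ISO, 6.03% ± 1.20 in Lip and 21.0% ± 2.72 in Lip+ISO. The share of Adcy6 was 40.8% ± 1.20, 31.3% ± 0.94, 39.8% ± 0.92 and 28.4% ± 1.13 in the same order, and that of Adcy5 46.7% ± 3.03, 43.7% ± 4.98, 45.8% ± 2.73 and 42.8% ± 3.97. Adcy3 thus stood at 0.115 ± 0.030 of the level of Adcy6 in DMSO, 0.463 ± 0.067 in ISO, 0.151 ± 0.029 in Lip and 0.740 ± 0.081 in Lip+ISO. The sum over the family did not rise with Adcy3: it was 139 ± 10.5 CPM per kilobase in DMSO, 120 ± 9.49 in ISO, 114 ± 10.6 in Lip and 96.6 ± 8.45 in Lip+ISO, with overlap between DMSO and ISO and none between Lip and Lip+ISO.

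Among the regulatory subunits, the share of Prkar1a was 28.5% ± 2.11 in DMSO, 36.0% ± 2.49 in ISO, 30.2% ± 2.82 in Lip and 44.2% ± 3.11 in Lip+ISO, and that of Prkar2b 63.6% ± 2.4, 56.9% ± 2.93, 61.6% ± 4.19 and 47.8% ± 3.02. The share of Prkaca among catalytic subunits was 82.0% to 83.0% in all group means. The ratio of summed regulatory to summed catalytic subunit RNA per kilobase was 3.93, 3.66 and 3.47 in DMSO, 4.74, 4.57 and 4.53 in ISO, 3.97, 3.68 and 3.14 in Lip, and 4.89, 4.21 and 4.06 in Lip+ISO. All libraries with ISO were above all libraries without it. With 3 libraries per group, a two-sided exact permutation test cannot give a p under 0.1, so none was run on these shares and ratios, which are ratios of RNA and say nothing of protein.

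**Figure D4:**
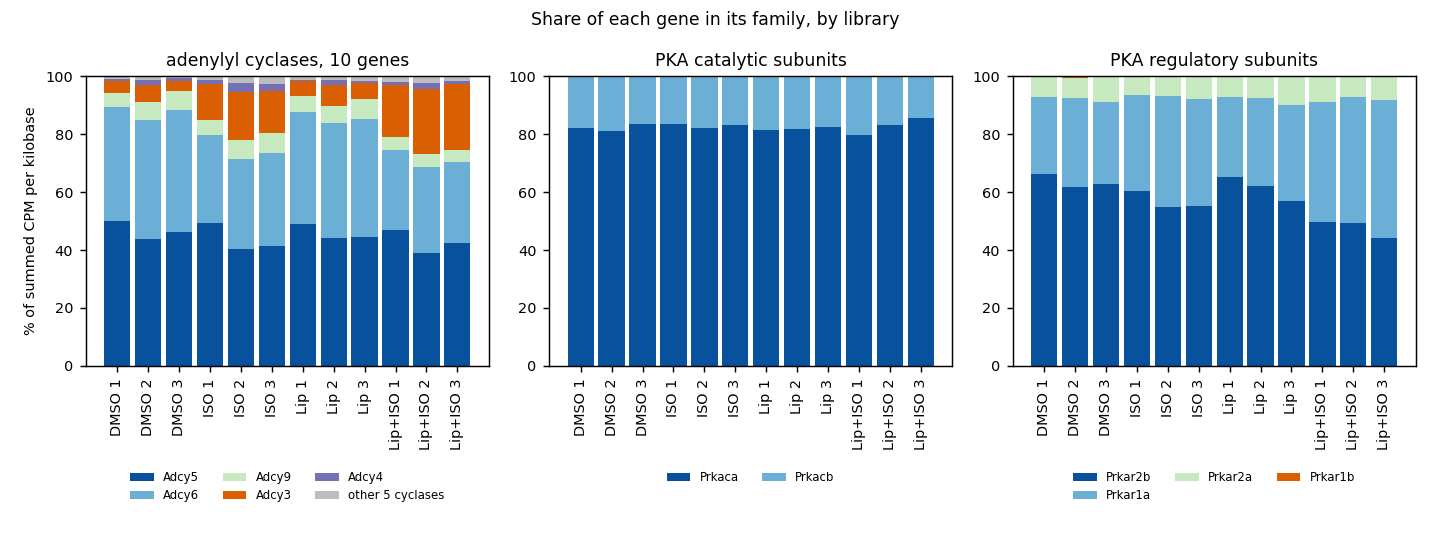
Percent of the summed CPM per kilobase of each family that each gene held, by library (horizontal axis), for the adenylyl cyclases, the catalytic and the regulatory subunits of PKA. The share of Adcy3 is 12.2% to 22.6% in libraries with ISO and 3.63% to 7.31% in those without, and the share of Prkar1a is highest in the 3 Lip+ISO libraries (41.5% to 47.6%).

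Promoter sequence was examined because 3 of the genes responded to a cAMP-raising agonist. The windows are those of RefSeq on GRCm38.p6, 250 bases before and 50 after each annotated start. They matched 9 of the 10 genes, with 19 starts. Adcy6 had no entry. The cAMP response element was searched as TGACGTCA, which reads the same on both strands, and its shorter form as TGACG on either strand, counted where it did not overlap a full element. The full element was in 1.79% of the 32851 promoters of the table, and TGACG in a window without it in 19%. These shares are per window, whereas the genes below can have several, and Prkar1a had 6. Among the 9 genes, Prkar1a alone had the full element. Its first base lay at position -49, counted back from the start that the count table uses, and the same site fell at position 39 from another annotated start. Of the starts that equal those in the count table, Adcy9 had TGACG at position -24, Prkaca its reverse complement CGTCA at -120 and -6, Prkacb CGTCA at -102 and Prkar2a CGTCA at -4, while that of Adcy3 had neither form. That of Prkar1a had TGACG at -187 besides the full element. No window of Adcy4, Adcy5 or Prkar2b had either form. The bases before the start are shown 5′ to 3′ for Prkar1a and Adcy3, which rose with ISO, and for Adcy9, which fell in Lip+ISO. Capitals mark TGACGTCA and TGACG. The Prkar1a window is chr11:109650699-109650948 on the plus strand, the Adcy3 window chr12:4133147-4133396 on the plus strand, and the Adcy9 window chr16:4420499-4420748 on the minus strand, each of 250 bases. A match is a description of letters and does not show that a factor binds.
Prkar1a: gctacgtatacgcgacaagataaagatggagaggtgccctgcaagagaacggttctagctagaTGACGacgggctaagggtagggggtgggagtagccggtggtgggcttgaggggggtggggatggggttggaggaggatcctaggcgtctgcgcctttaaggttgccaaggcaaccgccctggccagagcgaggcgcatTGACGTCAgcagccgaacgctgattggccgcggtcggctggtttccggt
Adcy3: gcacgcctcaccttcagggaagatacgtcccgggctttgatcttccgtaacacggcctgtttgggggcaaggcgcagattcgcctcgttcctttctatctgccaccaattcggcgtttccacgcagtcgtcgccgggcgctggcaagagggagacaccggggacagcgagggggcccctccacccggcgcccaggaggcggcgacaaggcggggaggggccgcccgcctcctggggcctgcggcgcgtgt
Adcy9: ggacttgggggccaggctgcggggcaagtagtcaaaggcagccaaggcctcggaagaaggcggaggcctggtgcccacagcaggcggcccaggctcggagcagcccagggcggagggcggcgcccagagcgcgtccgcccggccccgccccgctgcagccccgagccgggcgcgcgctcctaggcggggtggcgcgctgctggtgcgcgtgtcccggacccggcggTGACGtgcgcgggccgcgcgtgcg

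The surrounding pathway was followed through 33 further genes, which were the other cyclases, the remaining regulatory subunit Prkar1b, the PKA inhibitor peptides, the G protein α subunits, the A-kinase anchoring proteins (AKAPs, scaffolds that place PKA at organelles) and the exchange factors activated by cAMP. Of the 33, 29 were tested. In ISO against DMSO, 4 were higher and 6 lower, against 12.3% and 13.9% of all tested genes. The median log2 fold change over the 29 was 0.06. With the replicate block, 5 were higher and 6 lower, where it called 38.5% of all genes in either direction. The values that follow are from the fit without the block. Akap13, a scaffold that is also an exchange factor for the GTPase RhoA, measured 171, 179 and 189 CPM in DMSO and 443, 381 and 477 in ISO, and rose by a log2 fold change of 1.27 ± 0.11 (adjusted p = 6.37e-06). Adcy7, a cyclase typical of blood cells, rose by 1.21 ± 0.22 (adjusted p = 0.00173). It lay at 4.62 to 7.43 CPM in DMSO and 9.16 to 16.1 in ISO. Marker sums of macrophages, fibroblasts, endothelial and mesothelial cells were higher in ISO as well. The part of these cells in the Adcy7 values was not tested. Akap2 had the third largest called rise, at 0.38 ± 0.12 (adjusted p = 0.0295).

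Akap1, which anchors PKA to mitochondria, measured 220, 199 and 232 CPM in DMSO and 163, 122 and 133 in ISO, a log2 fold change of -0.64 ± 0.12 (adjusted p = 0.0015). Pkia, a peptide inhibitor of the catalytic subunit, was lower at -0.61 ± 0.15 (adjusted p = 0.0112), as was Akap7 at -0.54 ± 0.13 (adjusted p = 0.00974). Over 21 alternative fits with the same threshold on p, the calls of Akap13 and Akap1 were never lost, that of Adcy7 was lost in 1 (adjusted p up to 0.0564), those of Pkia and Akap7 in 2 each (up to 0.146 and 0.0837) and that of Akap2 in 8 (up to 0.157).

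Of the 29 genes, 5 were higher and 3 lower in Lip+ISO against Lip (11.5% and 15.8% of all tested genes), with a median of 0.02. Adcy8, a calmodulin-stimulated cyclase, had 4, 3 and 4 counts in Lip and 18, 26 and 20 in Lip+ISO, so that its log2 fold change of 2.81 ± 0.53 (adjusted p = 0.00147) rests on few reads. Akap13 was higher at 1.18 ± 0.11 (adjusted p = 7.11e-06) and Gnal, an α subunit of the stimulatory type, at 0.82 ± 0.28 (adjusted p = 0.0486). The lower genes were Akap1 at -0.73 ± 0.12 (adjusted p = 0.0004), Pkia at -0.56 ± 0.15 (adjusted p = 0.0152) and Akap12 at -0.38 ± 0.13 (adjusted p = 0.0395). Over the same 21 fits, Adcy8, Akap13 and Akap1 were called in each. The calls of Pkia, Akap12 and Gnal were lost in 4, 10 and 14 (adjusted p up to 0.105, 0.177 and 0.286). With the replicate block, 5 of the 29 were higher and 5 lower in Lip+ISO against Lip (35.6% of all genes in either direction).

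In Lip against DMSO none of the 29 was called by edgeR, with or without the block, or by DESeq2. Relative to ISO, 2 were higher and 3 lower in Lip+ISO (4.36% and 4.59% of all tested genes). The genes higher in Lip+ISO were Gnai3, an inhibitory α subunit (0.34 ± 0.06, adjusted p = 0.0045), and Akap10 (0.29 ± 0.08, adjusted p = 0.0467), and the lower ones Akap12 (-0.48 ± 0.13, adjusted p = 0.0324), Akap1 (-0.45 ± 0.12, adjusted p = 0.0314) and Akap8l (-0.37 ± 0.09, adjusted p = 0.029). These 5 calls were lost in 2 of the 21 fits for Gnai3, 8 each for Akap12 and Akap1, 9 for Akap8l and 18 for Akap10, with adjusted p up to 0.306. The block gave 3 higher and 5 lower in Lip+ISO against ISO (19.2% of all genes in either direction). In the interaction it gave 1 higher and 2 lower (6.63%), where none of the 29 was called without it. Gnas, the ubiquitous stimulatory α subunit, was called in none of these comparisons without the block. Its log2 fold change was 0.10 ± 0.08 in ISO against DMSO (edgeR adjusted p = 0.399).

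**Figure D5:**
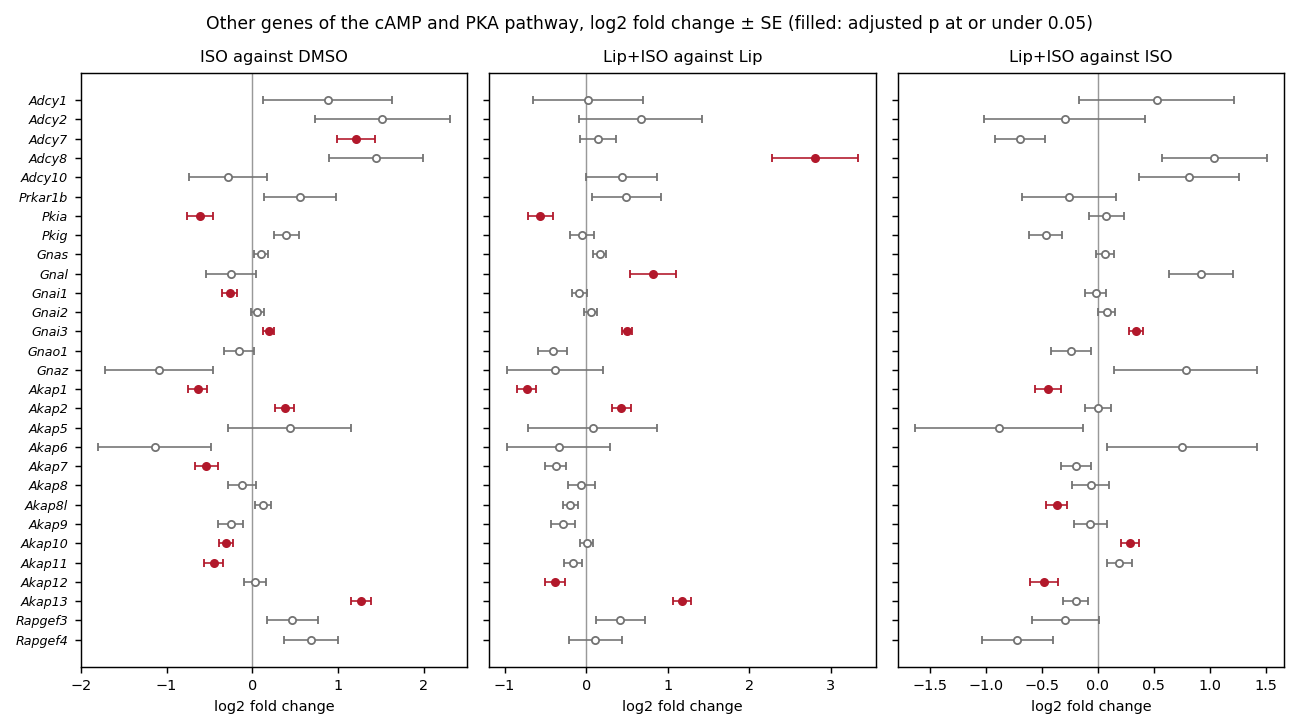
Log2 fold changes of the 29 tested further genes of the pathway in ISO against DMSO, Lip+ISO against Lip and Lip+ISO against ISO, with standard errors from edgeR over 3 libraries per group. Filled points have an adjusted p at or under 0.05 in the fit without a replicate block. Akap13 lies at 1.27 and 1.18 in the panels of ISO against DMSO and Lip+ISO against Lip, and Akap1 below 0 in all 3.

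The genes whose log2 CPM over the 12 libraries followed Adcy3 most closely were Cerk (Pearson r = 0.989), Pitpnc1 (r = 0.983) and Alpl (r = 0.981). Those that followed Adcy6 most closely were Akap1 (r = 0.989), Rgl1 (r = 0.987) and Srebf1 (r = 0.985). These are descriptions over 12 libraries that fall into 4 treatment groups, which any gene that responds to the treatments shares.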

How the data were processed

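RNA was sequenced from 12 libraries of eWAs, and groups and replicate numbers were read from the sample titles. The authors aligned reads to mm9 with STAR 2.4.2a and deposited raw counts of reads in each RefSeq gene, made by HOMER and iRNA-seq with at most a single read kept per position and length, and not normalized. A limit of that kind could cap highly expressed genes. In the counts, 1875 genes exceeded 2 counts per base pair. As reads of different length can share a position, this does not show whether the limit acted. The counts were taken as they stand. How reads shared between paralogs were assigned is not given in the sources used here, so similar sequence among the cyclase or subunit genes is a source of uncertainty. Coordinates are those of the table, with starts counted from 1.

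Counts were analyzed in R 4.3.3 with edgeR 4.0.16 (filterByExpr, TMM factors of 0.924 to 1.07, glmQLFit with 1 mean per group over all 12 libraries, two-sided glmQLFTest), with Benjamini-Hochberg adjustment over 13543 genes. The common biological coefficient of variation was 0.163. CPM values use TMM-scaled totals, log2 CPM a prior count of 2. The study used DESeq2, run here (1.42.0) as an alternative beside other scalings, no filter, a replicate block, fits to the groups compared only and fits without single libraries. The script was tested on simulated counts. All 10 genes were named throughout. Of the other pathway genes, the 3 with the largest called change in each direction per comparison were named, and the 3 genes closest to Adcy3 and Adcy6 by correlation. The genes and lists were chosen with earlier results of these data known.

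Deviations from the group means correlated between libraries of the same replicate number at 0.14 to 0.369 in ISO against DMSO, Lip+ISO against Lip and Lip against DMSO, so the numbers, which come from the titles, were treated as pairing these groups, and the interaction made from the first 2 of these comparisons. In Lip+ISO against ISO these correlations were 0.10, 0.31 and 0.0373 for replicates 1 to 3. The same numbers link ISO to Lip+ISO through DMSO and Lip. The calls of that comparison are therefore given without and with the block. The study states 3 independent experiments. Precision is limited by 3 libraries per group, and depth by totals of 22632220 to 43707557 counts.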

Additional observations from a re-analysis of the deposited data

How the results depend on the processing

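Among the 10 genes, the rises of Adcy3 and Prkar1a and the fall of Adcy6 with ISO, in both comparisons, and the fall of Adcy9 in Lip+ISO against Lip held their direction and their call in all 21 alternative fits. Calls depended on the following choices. With a log2 fold change of at least 1 also required, 1 gene was higher and 0 lower in ISO against DMSO, 1 higher and 0 lower in Lip+ISO against Lip, and 0 lower in Lip+ISO against ISO. A replicate block gave 3 higher and 3 lower genes in ISO against DMSO, 3 higher and 4 lower in Lip+ISO against Lip, and 1 lower in the interaction (Adcy9, 0.0163). It changed no call among the 10 genes in Lip against DMSO. For Lip+ISO against ISO the block gave 1 higher (Prkar1a, adjusted p = 0.0224) and 5 lower (besides Adcy6 and Adcy9, Adcy4, Adcy5 and Prkar2b at 0.00612, 0.0162 and 0.0475). There the block called 19.2% of all genes in either direction. DESeq2 size factors and the DESeq2 Wald test each gave 1 higher gene in Lip+ISO against ISO. Over all genes, they called 638 of 13543 and 876 of 12882 higher there. Both also called Adcy6 and Adcy9 lower, where 577 and 831 of all genes were lower. In either direction, they called 8.97% and 13.3% of all genes. Without single libraries or replicate numbers, 1 to 2 genes were lower in ISO against DMSO and 0 to 2 in Lip+ISO against ISO.

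Values near 0 changed sign. With DESeq2 size factors, Prkar2a and Prkar2b in ISO against DMSO became 0.0011 and 0.0023, and with library totals alone Prkacb and Prkar1a in Lip against DMSO became 0.013 and 0.024 and Prkacb in the interaction became -0.0057. Leaving out libraries gave ranges across 0, none of them called. These were -0.090 to 0.047 (Prkar2a) and -0.14 to 0.11 (Prkar2b) in ISO against DMSO, and -0.14 to 0.066 (Prkaca) in Lip+ISO against Lip. In Lip against DMSO they were -0.063 to 0.21 (Adcy3), -0.080 to 0.025 (Prkacb), -0.065 to 0.038 (Prkar1a), -0.11 to 0.022 (Prkar2a) and -0.28 to 0.026 (Prkar2b). Between Lip+ISO and ISO they were -0.037 to 0.21 (Prkaca) and -0.016 to 0.14 (Prkacb). In the interaction they were -0.88 to 0.12 (Adcy4), -0.22 to 0.15 (Adcy5), -0.24 to 0.023 (Adcy6), -0.0033 to 0.26 (Prkaca) and -0.32 to 0.0002 (Prkar2b). The cause of these changes was not tested.

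Scaling by library totals alone moved the median log2 fold change of all genes in Lip+ISO against Lip from 0.00 to -0.12, and the share of rises among called genes from 42.2% to 26.5% there and from 47.1% to 37% in ISO against DMSO. Over all genes, the block raised the calls in Lip+ISO against ISO from 590 higher and 621 lower to 1149 and 1458, in the interaction from 122 and 98 to 427 and 471, and those higher in ISO against DMSO from 1670 to 2552. DESeq2 gave 324 and 236 in the interaction. Leaving out libraries moved these counts by more than 1.5 times. In ISO against DMSO, 1064 were higher without DMSO 1 and 1069 without DMSO 3, and 1050 higher and 834 lower without replicate 2 of all groups, and 882 and 1008 without replicate 3. In Lip+ISO against Lip, 930 were higher and 1162 lower without replicate 2. Lip+ISO against ISO had 341 and 393 without ISO 2, 343 lower without ISO 3, 392 and 388 without Lip+ISO 3, 167 and 212 without replicate 2 and 222 and 218 without replicate 3, and 349 and 395 when fitted to those groups only. The interaction had 63 to 177 higher and 50 to 151 lower without single libraries, 75 and 38 without replicate 1, 6 and 9 without replicate 2, and 19 and 19 without replicate 3. Family shares computed without dividing by length moved by more than their spread for 25 of 40 values. Adcy4, at 76 to 515 counts per library, is the gene most limited by depth.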
